A study of Mus musculus with 2 samples.

Results

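Gp2, Zg16, Dmbt1 and Aqp12 encode proteins of the zymogen granule and the apical side of the pancreatic acinar cell. These 4 of the 14789 gene symbols measured were described in single cells sorted from mouse pancreas. They were chosen by their role and by their measured level in acinar cells, so their contrast between acinar and other cells is a description and carries no test. A cell was called acinar when at least 10% of its UMIs (unique molecular identifiers, each standing for a captured transcript) came from 10 digestive enzyme genes together, Ctrb1, Try4, Cela1, Prss2, Cela3b, Cpb1, Pnlip, Clps, Cela2a and Cpa1. By this rule 275 of 728 cells were acinar and 453 were not. The animals were adult mice of genotype Tff2CreERT2; R26-tdTomato, in which an inducible Cre is driven by Tff2 and switches on a red reporter after tamoxifen. Cells positive for EpCAM and the reporter and negative for CD45 and TER119 were sorted for 10x Genomics libraries. There was 1 group, with 2 biological replicates and no control. Cells in the table are not tied to the replicates, so all values come from 1 pooled sample, have no replicate check and carry no p-value.

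Acinar cells store digestive enzymes as inactive precursors in zymogen granules under the apical membrane and release them into the ductal lumen when cholecystokinin or acetylcholine raises cytosolic calcium. Gp2 is a GPI-anchored glycoprotein and the main protein of the granule membrane. Zg16 is a lectin that lines the inner face of that membrane and binds granule proteoglycans. Dmbt1, known in mouse pancreas as muclin, is a large scavenger receptor cysteine-rich glycoprotein that passes through the granule and reaches the apical surface. Aqp12 is an intracellular member of the aquaporin family that is found in acinar cells.

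The genes lie on chromosomes 7 and 1 (GENCODE M21 gene spans, GRCm38). Gp2 spans 119442537 to 119459285 on the minus strand of chromosome 7. Zg16 spans 127050156 to 127087328 on the minus strand of the same chromosome, though its RefSeq span ends at 127052675. Gm44939 and Gm22747 overlap the longer Zg16 span on the opposite strand. Dmbt1 spans 131032053 to 131121630 on the plus strand of chromosome 7. Aqp12 spans 93006334 to 93012269 on the plus strand of chromosome 1. Fgfr2 overlaps Dmbt1 on the opposite strand and had 1 UMI in acinar cells and 15 in other cells. Gp2 and Aqp12 have an entry in the RefSeq promoter table (GRCm38.p6), and the 250 bases before each start are shown because transcripts of both genes were concentrated in acinar cells. Capitals mark matches to TGGGAA, the core of the site of the Rbpj family, to CACCTG, an E box of the kind that class A basic helix-loop-helix factors and their partners bind, and to TATAAA. The Ptf1 complex of acinar cells is known to read an E box paired with an Rbpj-type site.

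Gp2, chr7:119459273-119459522, minus strand: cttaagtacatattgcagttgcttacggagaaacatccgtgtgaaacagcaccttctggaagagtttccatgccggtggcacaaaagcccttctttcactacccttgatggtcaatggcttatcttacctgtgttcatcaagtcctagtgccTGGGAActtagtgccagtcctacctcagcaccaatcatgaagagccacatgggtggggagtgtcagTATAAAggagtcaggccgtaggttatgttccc
Aqp12, chr1:93006084-93006333, plus strand: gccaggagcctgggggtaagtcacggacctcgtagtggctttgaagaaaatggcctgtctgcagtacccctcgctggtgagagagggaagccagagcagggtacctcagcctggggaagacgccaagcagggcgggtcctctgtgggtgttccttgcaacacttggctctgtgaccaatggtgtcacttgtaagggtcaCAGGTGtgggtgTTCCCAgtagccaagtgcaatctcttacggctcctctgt

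In the Gp2 promoter TGGGAA lay 98 to 93 bases before the start and TATAAA 32 to 27 bases before it, both on the gene's strand. In the Aqp12 promoter CACCTG lay 51 to 46 and TGGGAA 39 to 34 bases before the start. Both lay on the opposite strand, so the gene's strand printed here reads CAGGTG and TTCCCA. Both strands were searched for the motifs CANNTG and its special cases CACCTG and CATATG, and for TGGGAA as well as AAGGTCA and TATAAA, in windows of 250 bases. Among all 32851 promoters of the table, 66.2% held CANNTG, 17.2% held CACCTG, 3.46% CATATG, 21.6% TGGGAA, 12.4% TATAAA and 4.08% AAGGTCA. The pair of CACCTG and TGGGAA starting within 25 bases of each other, an arrangement looked for after it was seen in Aqp12, occurred in 312 promoters (0.950%). TATAAA on the gene's strand with a start 50 to 21 bases before the gene's start occurred in 2.32%. Of the 9 enzymes of the rule with an entry, 6 held CACCTG and 5 held TGGGAA. These matches describe letters and not bound sites.

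Depth was 1179733 UMIs in acinar cells, with a median of 2117 UMIs per cell, and 1173275 UMIs in other cells, with a median of 2079. The enzymes took 53.1% of UMIs in the median acinar cell and 1.30% in the median other cell. The acinar cell nearest the 10% limit had 11.4% and held 0 Gp2, 15 Zg16, 2 Dmbt1 and 1 Aqp12 UMIs, and the nearest other cell had 8.94% and held 0 Gp2, 4 Zg16, 0 Dmbt1 and 0 Aqp12 UMIs. In clusters made without the 4 genes, 270 of the 275 acinar cells fell into acinar-like clusters, 4 into an unnamed cluster of 9 cells and 1 into the endothelial-like cluster. Despite the sort, most other cells lay in clusters named for markers of endothelial, lymphoid, myeloid, erythroid or mesenchymal cells. In acinar cells the 8 endothelial markers summed to 106 CPM against 5047 CPM in other cells (CPM is UMIs of a gene or list per 1000000 UMIs of the set). Ductal markers summed to 779 CPM in acinar and 3873 CPM in other cells, and Epcam itself had 17 UMIs in 13 acinar cells. Barcodes ended in 1 (667 cells, 229 of them acinar) or 2 (61 cells, 46 of them acinar), and no label says what the ending stands for. The 7 barcode sequences found under both endings belonged to 14 cells, all acinar, and results that moved without them are named in the closing section.

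All 4 genes were at least 2-fold higher in acinar cells than in other cells, a call reached upward by 3.85% and downward by 85.3% of the 3615 genes with at least 50 UMIs over both sets. Because the genes were chosen with this contrast known, nothing is read from that share. The median gene stood at a log2 ratio of -2.57, in totals of which the enzymes took 53.3% in acinar cells and 1.36% in other cells. Intervals here and elsewhere are exact 95% intervals that cover counting error only.

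Gp2 was at 0, 5 and 112 UMIs in the lowest, median and highest acinar cell, and no other cell had more than 3. Its pooled level was 2172 CPM (2088 to 2257) in acinar cells and 27.3 CPM (18.7 to 38.5) in other cells, 79.6 times as high (56.3 to 117). With every cell thinned to 1000 UMIs, 84.0% of acinar cells (79.1 to 88.1) and 2.65% of other cells (1.38 to 4.58) had a Gp2 UMI. Gp2 transcripts were thus seen in most acinar cells even at this depth, though 44 of them had no Gp2 UMI.

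Zg16 had 0, 30 and 717 UMIs in the lowest, median and highest acinar cell, against at most 16 in another cell. The pooled level was 13487 CPM (13278 to 13698) in acinar cells and 381 CPM (346 to 418) in other cells, a ratio of 35.4 (32.2 to 39.0). At 1000 UMIs per cell it was seen in 99.6% of acinar cells and in 31.3% of other cells (27.1 to 35.8). The sets nearly separated: a single acinar cell had no Zg16 UMI, the next-lowest held 1471 CPM, and the highest other cell held 11503 CPM, below the acinar median of 13304 CPM.

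The acinar cell without Zg16 was looked at after its values were seen. It had 4535 UMIs, an enzyme share of 29.9%, 5 Gp2, 3 Dmbt1, 0 Aqp12 and 5 Tff2 UMIs, and barcode ending 1. At the pooled acinar level a cell of this depth would hold 61.2 Zg16 UMIs, and a count of 0 allows up to 662 CPM. Sycn, which encodes another granule protein, syncollin, had 6 UMIs there where the pooled level gives 89.3. Ctrb1 had 785 UMIs, the trypsinogen Try5 453, the stress-induced Nupr1 99 and Clu, which encodes a secreted chaperone, 38. No expected count was set beside these last values, so none is read as high or low.

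Dmbt1 had 0, 4 and 115 UMIs in the lowest, median and highest acinar cell and at most 4 in another cell. Its level was 1705 CPM (1631 to 1781) in acinar cells and 28.1 CPM (19.4 to 39.5) in other cells, a ratio of 60.6 (43.0 to 88.3). It was seen in 75.3% of acinar cells (69.7 to 80.3) and 2.87% of other cells (1.54 to 4.86) at 1000 UMIs. Acinar cells without a Dmbt1 UMI at that depth numbered 68, so the sets overlapped at 0.

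Aqp12 had 0, 1 and 13 UMIs in the lowest, median and highest acinar cell and at most 1 in another cell. The level was 235 CPM (208 to 264) in acinar cells and 5.97 CPM (2.40 to 12.3) in other cells, a ratio of 39.4 (18.8 to 98.8). At 1000 UMIs it was seen in 27.3% of acinar cells (22.1 to 32.9) and in 0.662% of other cells (0.137 to 1.92), which was 3 cells. With 277 UMIs over 275 acinar cells, this aquaporin was too thinly counted for a level in a single cell.

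**Figure D1:**
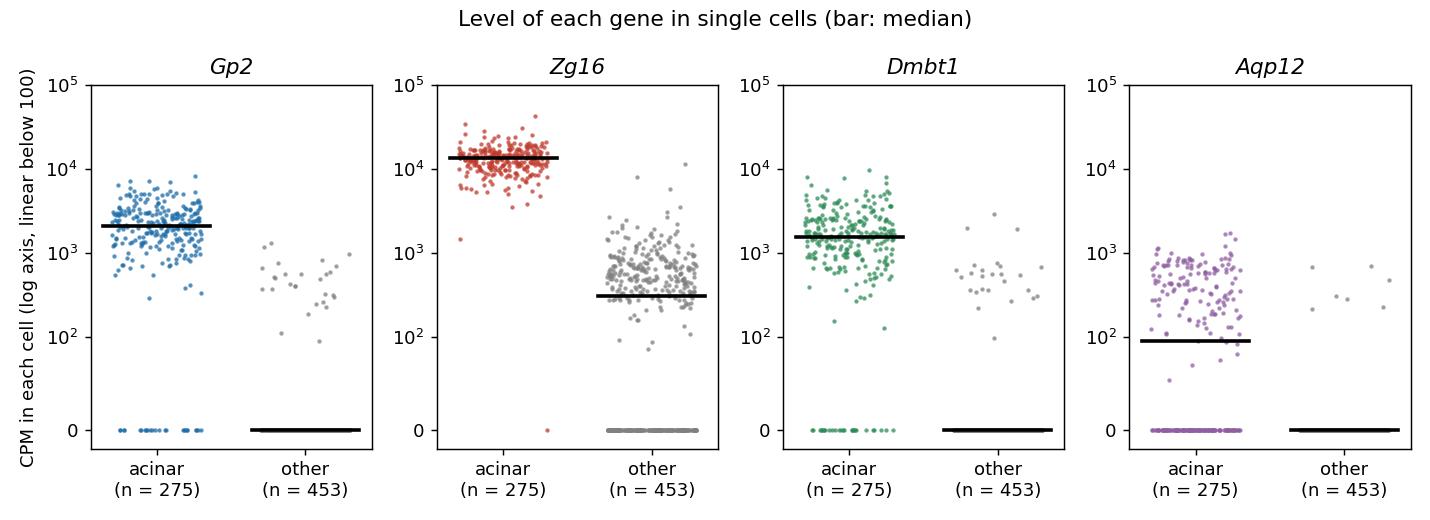
Level of each gene in single cells, in CPM on an axis that is logarithmic above 100 and linear below it, with each point a cell and the bar the median, for 275 acinar cells at the left and 453 other cells at the right of each panel. Zg16 is seen in nearly all acinar cells and, at a lower level, in 263 other cells, while Gp2, Dmbt1 and Aqp12 are at 0 in most other cells.

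The level in other cells was set against the enzyme UMIs in the same cells. Zg16 stood at 25.3 UMIs per 1000 enzyme UMIs (24.9 to 25.7) in acinar cells and 27.9 (25.4 to 30.7) in other cells, or 26.0 (23.5 to 28.7) without the 5 other cells of the unnamed cluster. Aqp12 stood at 0.440 (0.390 to 0.495) in acinar cells and 0.438 (0.176 to 0.901) in other cells. The Zg16 ratio to the enzymes was thus close in and outside acinar cells, while the 7 Aqp12 UMIs of other cells leave an interval too wide to compare. The Zg16 UMIs of other cells are not read as expression there.

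Gp2 and Dmbt1 were lower in other cells relative to the summed enzymes. Gp2 had 4.07 UMIs per 1000 enzyme UMIs (3.92 to 4.23) in acinar cells and 2.00 (1.37 to 2.82) in other cells, and Dmbt1 had 3.20 (3.06 to 3.34) in acinar cells and 2.06 (1.42 to 2.90) in other cells. Neither pair of intervals overlapped, although the other cells held only 32 Gp2 and 33 Dmbt1 UMIs. Tff2 showed the same order, with 12.4 in acinar cells and 6.62 (5.42 to 8.01) in other cells. The enzymes themselves had acinar over other ratios of 26.6 (Cela2a) to 51.7 (Cpb1), and the Dmbt1 interval given above, 43.0 to 88.3, holds those of Cpb1, Pnlip (50.9) and Ctrb1 (47.5), whereas that of Gp2, 56.3 to 117, lies above them all.

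Across the classes of other cells, Zg16 was at 397 CPM in endothelial-like cells (157 UMIs), 385 CPM in ductal-like cells (52 UMIs), 334 CPM in B or plasma-like cells (66 UMIs) and 315 CPM in T or NK-like cells (63 UMIs). Per 1000 enzyme UMIs Zg16 was at 25.3 (21.5 to 29.6) in endothelial-like, 27.9 (20.8 to 36.5) in ductal-like, 23.7 (18.3 to 30.2) in B or plasma-like and 27.3 (20.9 to 34.9) in T or NK-like cells, intervals that all hold the acinar value. The ductal-like class, the epithelial neighbour of the acinar cell, therefore did not stand apart in Zg16. The remaining named classes had 11 to 24 Zg16 UMIs each and intervals that also hold it.

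Gp2 differed more among the classes, on few UMIs. B or plasma-like cells held 12 Gp2 UMIs, 4.31 per 1000 enzyme UMIs (2.23 to 7.53), endothelial-like cells 8, or 1.29 (0.557 to 2.54), ductal-like cells 4, or 2.14 (0.584 to 5.49), and T or NK-like cells 2, or 0.865 (0.105 to 3.13). The intervals of these neighbours overlap, except that the endothelial-like and T or NK-like ones lie below the acinar value. Dmbt1 had 15 UMIs in endothelial-like cells, 2.42 per 1000 enzyme UMIs (1.35 to 3.99), and 1 in ductal-like cells, 0.536 (0.0136 to 2.98). Aqp12 had 5 of its 7 UMIs outside acinar cells in endothelial-like cells and 0 in ductal-like cells, which allows up to 22.2 CPM.

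The 5 other cells of the unnamed cluster were the exception. They had a pooled enzyme share of 7.19%, close to the 10% limit, and held 44 Zg16 UMIs, 87.8 per 1000 enzyme UMIs (63.8 to 118), 7 Dmbt1 UMIs, 14.0 (5.62 to 28.8), and 3 Gp2 UMIs, 5.99 (1.23 to 17.5). Zg16 and Dmbt1 were therefore higher there relative to the enzymes than in acinar cells, by intervals that do not overlap.

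**Figure D2:**
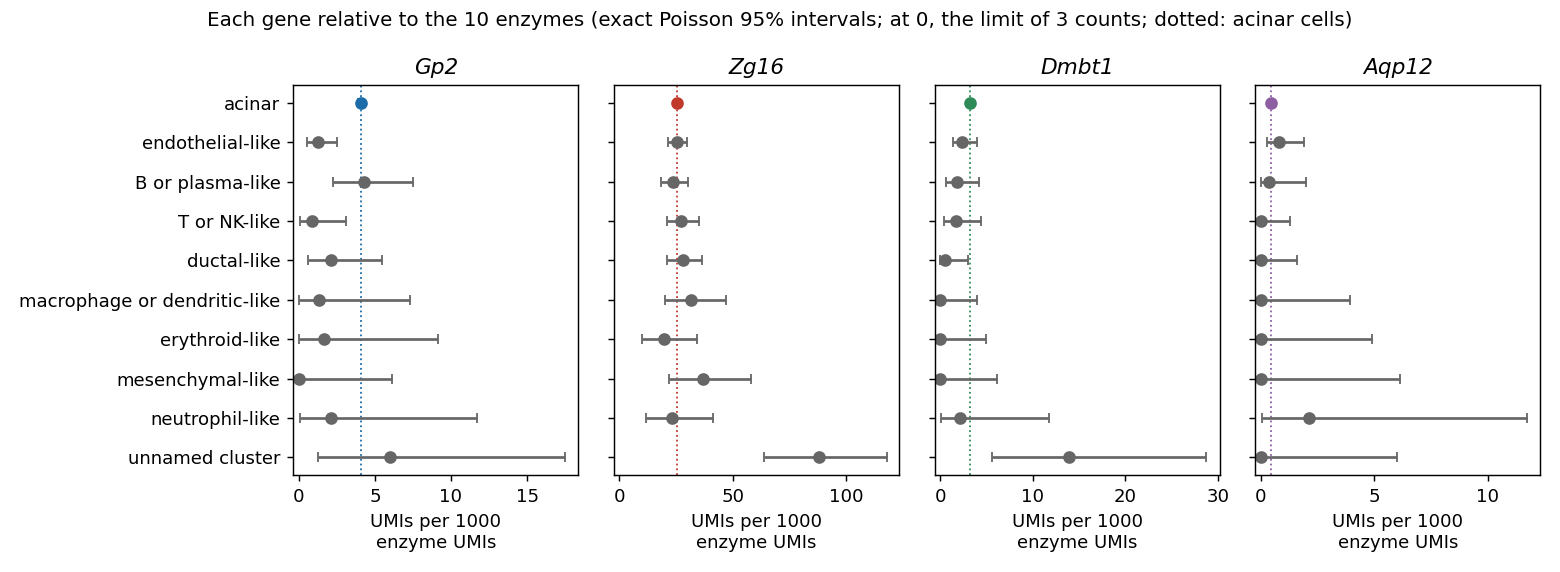
UMIs of each gene per 1000 UMIs of the 10 enzymes (linear axes), for acinar cells at the top and each class of other cells under them, with exact Poisson 95% intervals or, at 0 UMIs, the limit that 3 counts give; the dotted line is the acinar value. The Zg16 intervals of the named classes hold the acinar value of 25.3. Those of Gp2 in endothelial-like and T or NK-like cells lie below 4.07, and that of Dmbt1 in ductal-like cells, on 1 UMI, lies below 3.20. The 5 cells of the unnamed cluster lie above the acinar value for Zg16 and Dmbt1.

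Within acinar cells the 4 genes spread differently. At 1000 UMIs per cell the median and highest counts were 2 and 9 for Gp2, 14 and 43 for Zg16, 1 and 9 for Dmbt1 and 0 and 2 for Aqp12. The variance over the mean, which is 1 where counting alone makes the spread, was 1.59 for Gp2, 2.19 for Zg16, 1.77 for Dmbt1 and 0.876 for Aqp12. It was 4.48 for the enzyme Pnlip and 37.2 for Clps, at much higher means. Zg16 also had the highest mean of the 4 genes, 13.7 UMIs. The standard deviation over the mean, which counting alone raises at low means, was lowest for Zg16, at 0.399. It was 0.835 for Gp2, 0.987 for Dmbt1 and 1.71 for Aqp12. By the variance over the mean, Aqp12 showed no spread beyond counting at this depth, and the other 3 genes showed some.

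At the same depth 50 acinar cells (18.2%) had a UMI of all 4 genes, 148 (53.8%) of 3, 66 (24.0%) of 2, 11 of 1 and 0 of none. Of the other cells 0 had all 4, 1 had 3, 9 had 2, 149 had 1 and 294 (64.9%) had none. Dmbt1 was seen in 76.6% of the 231 acinar cells with a Gp2 UMI and in 68.2% of the 44 cells without one. Aqp12 went the other way, in 26.8% of the cells with a Gp2 UMI and 29.5% of those without. By Dmbt1, Aqp12 was seen in 28.5% of the 207 cells with a Dmbt1 UMI and 23.5% of the 68 without.

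Tff2, the gene that drove the Cre, encodes a secreted trefoil peptide and was at 6600 CPM (6454 to 6748) in acinar cells. Acinar cells were split at the median of Tff2 into 137 high and 138 low cells, with a median depth of 2759 UMIs in high and 1696.5 UMIs in low cells. None of the 4 genes differed by 2-fold or more, a size reached upward by 1.65% and downward by 1.95% of the 668 genes over the floor. Zg16 was at 14577 CPM in high-Tff2 cells and 12055 CPM in low-Tff2 cells, a ratio of 1.21 (1.17 to 1.25). Aqp12 was at 263 CPM in high-Tff2 cells and 198 CPM in low-Tff2 cells, a ratio of 1.33 (1.03 to 1.71). The Aqp12 interval held 1 within the large acinar-like cluster of 234 cells (1.19, 0.928 to 1.53) and at 1000 UMIs per cell (1.19, 0.751 to 1.88).

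Dmbt1 was at 1811 CPM in high-Tff2 cells and 1565 CPM in low-Tff2 cells, a ratio of 1.16 (1.06 to 1.27). Within the large acinar-like cluster the Dmbt1 ratio was 1.04 (0.955 to 1.14), an interval that holds 1. At 1000 UMIs per cell the Dmbt1 ratio stayed at 1.16, with a wider interval on fewer counts that also holds 1 (0.970 to 1.39). Zg16 kept a ratio of 1.18 (1.14 to 1.22) within the large cluster. With every cell weighted equally the Dmbt1 means were 2134 CPM in high-Tff2 cells and 1569 CPM in low-Tff2 cells. Gp2 went the other way, at 2117 CPM in high-Tff2 and 2243 CPM in low-Tff2 cells, with an interval of the ratio that holds 1 (0.944, 0.872 to 1.02). As means over cells, Gp2 was at 2010 CPM in high-Tff2 and 2489 CPM in low-Tff2 cells, and thinned to 1000 UMIs its ratio was 0.799 (0.677 to 0.941). The pooled Gp2 ratio, in which deep cells weigh most, was thus nearer to 1 than both.

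In 4 groups of cells ordered by Tff2, of 69, 69, 69 and 68 cells, the pooled Zg16 level was 10233, 12656, 14460 and 14731 CPM from the lowest to the highest Tff2, with overlapping intervals in the last 2 groups. Dmbt1 stood at 1178 (997 to 1383), 1692, 1799 and 1827 CPM, so the lowest-Tff2 group lay below the other groups. That group held 34 of the 36 cells of a small acinar-like cluster, and the highest 2 groups held 0 of them. The small cluster was itself lower in Dmbt1, Zg16 and Tff2 and higher in Gp2 than the large one. Gp2 stood at 2380, 2198, 2227 and 1972 CPM, and Aqp12 at 221, 190, 257 and 270 CPM with overlapping intervals. Median depth also grew along this order, with 1418, 2447, 2710 and 2842.5 UMIs, and at the equal depth of 1000 UMIs the high-Tff2 over low-Tff2 ratio of Zg16 was 1.27.

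Split by enzyme share instead, the 137 high-enzyme cells had 57.9% of UMIs from the enzymes and the 138 low-enzyme cells 47.2%. Zg16 was at 14968 CPM in high-enzyme cells and 11500 CPM in low-enzyme cells (1.30, 1.26 to 1.34), while Dmbt1 was at 1377 CPM in high-enzyme and 2144 CPM in low-enzyme cells (0.643, 0.588 to 0.702). Gp2 was at 2011 CPM in high-enzyme and 2388 CPM in low-enzyme cells (0.842, 0.779 to 0.911). Thinned to 1000 UMIs, the Gp2 ratio was 0.995 (0.848 to 1.17), an interval that holds 1. As means over cells in 4 groups from low to high enzyme share, Gp2 was at 2269, 2314, 2049 and 2371 CPM. The lower pooled Gp2 level in high-enzyme cells was thus not seen with cells at equal depth. Aqp12 was at 216 CPM in high-enzyme and 260 CPM in low-enzyme cells (0.831, 0.652 to 1.06). The median of all genes was -0.64 on the log2 scale and Dmbt1 was at -0.64 too, so Zg16 stood out from the other genes and Dmbt1 did not. None of the 4 passed 2-fold, against 0.15% of genes higher and 23.2% lower.

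With the 10 enzymes taken out of the total, the high-enzyme over low-enzyme ratio was 1.63 for Zg16, 1.06 for Gp2, 1.04 for Aqp12 and 0.807 for Dmbt1, and with that total 0.912% of genes passed 2-fold upward and 9.88% downward. This total multiplies the ratio of every gene by 1.26, and the intervals of Gp2 (0.977 to 1.14) and Aqp12 (0.818 to 1.33) then hold 1. By 4 groups of enzyme share, low to high, Dmbt1 stood at 1946, 2248, 1471 and 1113 CPM and Zg16 at 10648, 11950, 14911 and 15131 CPM. As means over cells Zg16 was at 11584, 12769, 15138 and 14159 CPM, so its highest group did not exceed the third.

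**Figure D3:**
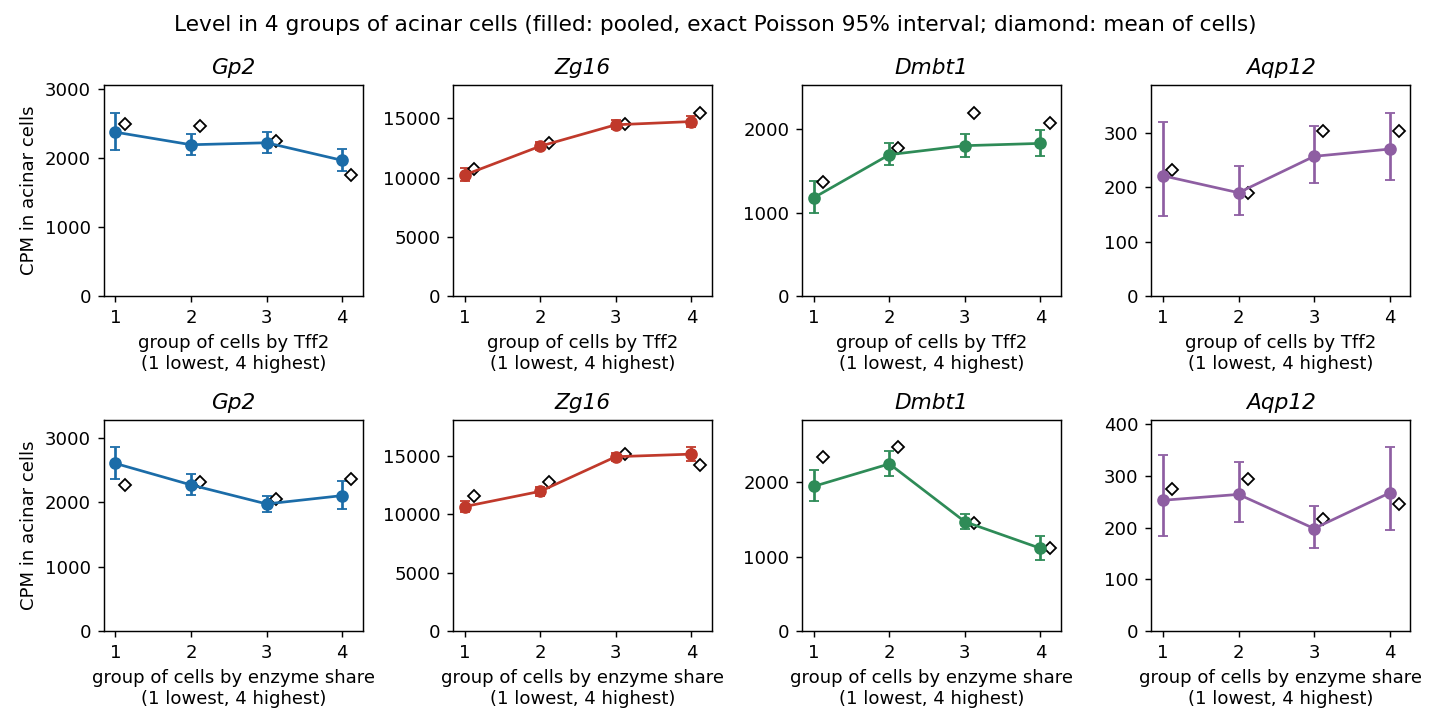
Level of each gene (CPM, axes from 0) in 4 groups of acinar cells ordered from low to high by Tff2 level (top row) or by the share of UMIs from the 10 enzymes (bottom row), with filled points for pooled UMIs and exact Poisson 95% intervals and open diamonds for means over cells. Pooled Zg16 is higher in the upper 2 groups than in the lower 2 of both orders, while its mean over cells is lower in the highest enzyme group (14159 CPM) than in the third (15138 CPM), and Dmbt1 is lowest at low Tff2, with 1178 CPM, and at high enzyme share, with 1113 CPM.

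Correlations across the 275 acinar cells, on log2(UMIs per 10000 + 1), describe the same cells, which share libraries and depth. Among the 10 enzymes and Tff2, Zg16 had its highest r with Clps, the colipase that anchors pancreatic lipase (r = 0.38, or 0.32 thinned), and with Tff2 (0.37, or 0.28 thinned). Its r with Tff2 was 0.35 under barcode ending 1 (229 cells) and 0.50 under ending 2 (46 cells). The lectin's r with the carboxypeptidase Cpa1 was -0.13.

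Dmbt1 gave the strongest of the correlations with an enzyme, at r = 0.59 with Cpb1, carboxypeptidase B (0.45 thinned). It was 0.52 under ending 1, 0.36 under ending 2 and 0.64 within the large acinar-like cluster of 234 cells. With the elastases Cela1 and Cela2a the r of Dmbt1 was 0.36 and -0.34, so 2 enzymes of one family stood on opposite sides. With Tff2 it was 0.16, and 0.08 thinned.

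Gp2 varied with Cpa1 (0.32, or 0.25 thinned), Cela1 (0.30, or 0.29 thinned) and the lipase Pnlip (0.29, or 0.27 thinned), and against Clps (-0.23, or -0.25 thinned). Its r with Tff2 was -0.10. Gp2 and Zg16, both of the granule membrane, thus had opposite signs with colipase. Aqp12 lay between -0.07 and 0.07 with all 10 enzymes and Tff2, which in counts this sparse is no finding.

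Among themselves the 4 genes varied little together. The r was 0.23 for Gp2 and Dmbt1, 0.06 thinned, and -0.12 for Gp2 and Zg16, -0.03 thinned. Zg16 and Dmbt1 had an r of 0.08. Each pair with Aqp12 was between 0.03 and 0.14.

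**Figure D4:**
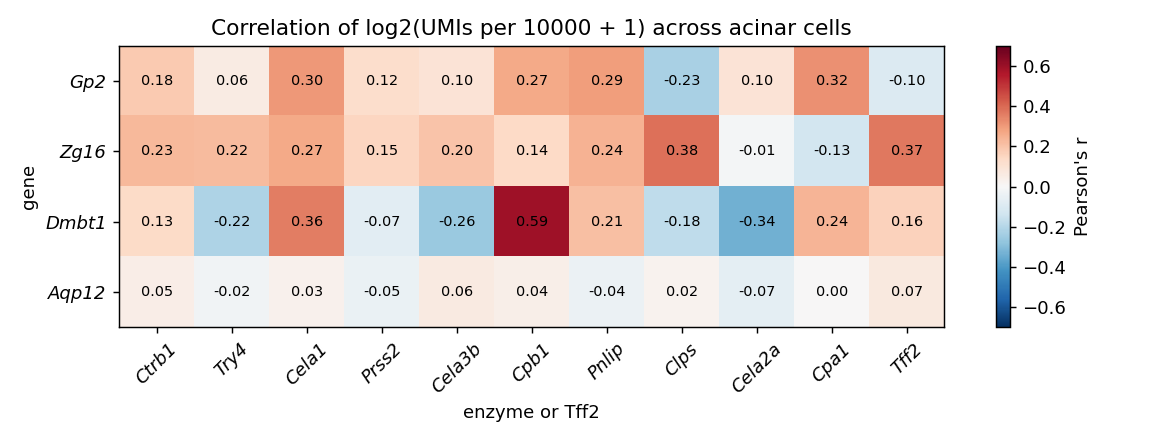
Pearson's r of log2(UMIs per 10000 + 1) across 275 acinar cells for each of the 4 genes (rows) with Tff2 and each of the 10 enzymes (columns), as a colour and a printed value. Dmbt1 with Cpb1 has the highest value, 0.59, Zg16 is highest with Clps, 0.38, where Gp2 is at -0.23, and the Aqp12 row stays near 0.

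The Dmbt1 and Cpb1 relation was also read as levels. Dmbt1 was at 2432 CPM in the 137 high-Cpb1 cells and 1295 CPM in the 138 low-Cpb1 cells, a ratio of 1.88 (1.72 to 2.05). Thinned to 1000 UMIs the ratio was 2.34 (1.92 to 2.85). Within ending 1 it was 1.66 (1.51 to 1.81), with 2528 CPM in 114 high-Cpb1 and 1527 CPM in 115 low-Cpb1 cells. Within ending 2 it was 1.40 (0.913 to 2.14), with 876 CPM in high-Cpb1 and 625 CPM in low-Cpb1 cells, 23 cells each, an interval that holds 1.

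Dmbt1 was lower in high-Cela2a cells, at 1419 CPM, than in low-Cela2a cells, at 2349 CPM (0.604, 0.553 to 0.661), and the ratio was 0.356 within ending 2 and 0.733 within ending 1. Gp2 was at 1959 CPM in high-Clps cells and 2720 CPM in low-Clps cells, a ratio of 0.720 (0.664 to 0.782). That order also held within ending 1 (0.735) and ending 2 (0.494). Zg16 was at 14040 CPM in high-Clps cells and 12063 CPM in low-Clps cells, a ratio of 1.16 (1.12 to 1.21).

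**Figure D5:**
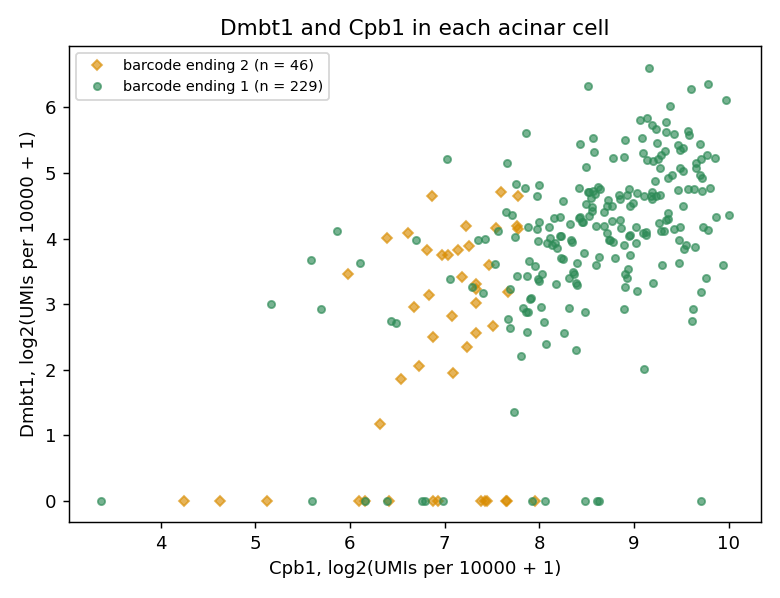
Dmbt1 against Cpb1 in each of the 275 acinar cells, both as log2(UMIs per 10000 + 1), with the barcode ending of each cell by colour and marker. Cells high in Cpb1 tend to be high in Dmbt1 (r = 0.59), and the 46 cells of ending 2 lie toward low values of both.

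The endings differed most in Dmbt1. It was at 718 CPM (581 to 878) under ending 2 and 1829 CPM (1748 to 1913) under ending 1, a ratio of 0.393 (0.316 to 0.483), the only one of the 4 genes past 2-fold, where 28.6% of genes were lower and 5.24% higher by that size. At 1000 UMIs it was seen in 43.5% of ending 2 cells (28.9 to 58.9) and 81.7% of ending 1 cells (76.0 to 86.5). Cpb1 moved the same way, at a ratio of 0.336 (0.319 to 0.353). Acinar cells had a median of 1695 UMIs under ending 2 and 2248 UMIs under ending 1, and whether they stand for animals or for libraries cannot be told apart here.

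Gp2 was at 1686 CPM under ending 2 and 2233 CPM under ending 1 (0.755, 0.655 to 0.867), and Zg16 at 15046 CPM under ending 2 and 13290 CPM under ending 1 (1.13, 1.08 to 1.19). Aqp12, at 250 CPM under ending 2 and 233 CPM under ending 1, gave a ratio whose interval holds 1 (1.07, 0.721 to 1.54). The ratio of Tff2 was 0.942.

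The small acinar-like cluster of 36 cells, with a median of 1360 UMIs, was set beside the large one of 234 cells, with 2385.5. The clusters were made without the 4 genes but with genes that vary with them, so the values are descriptions. Gp2 was at 2978 CPM in the small and 2140 CPM in the large cluster (1.39, 1.19 to 1.62), and Zg16 at 11150 CPM in the small and 13648 CPM in the large one (0.817, 0.755 to 0.883). Dmbt1 was at 1175 CPM in the small and 1737 CPM in the large cluster (0.676, 0.526 to 0.857), while the Aqp12 ratio of 0.769 had an interval that holds 1 (0.379 to 1.40).

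None of the 4 genes passed 2-fold between these clusters, where 4.26% of genes were higher and 63.3% lower in the small one. The median gene stood at -1.51 on the log2 scale, and Tff2 at a ratio of 0.213. The 4 genes thus lay nearer to equal levels than the median gene did.

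The genes that varied most like each of the 4 were looked for among 349 genes with a UMI in at least 25% of acinar cells. For Gp2 they were Pnliprp1, a lipase-related granule protein (r = 0.45, or 0.39 thinned), Pdia2, a pancreatic disulfide isomerase (0.36), and then Cpa1, Cela1 and Pnlip. Among those with the lowest r were Clps and Cox7a2, both at -0.23. The nearest genes of Gp2 thus included 3 of the 10 enzymes.

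For Zg16 the nearest were Reg1, a secreted regenerating protein (0.41, or 0.33 thinned), Clps, Tff2, Sycn (0.32, or 0.39 thinned) and the ribonuclease Rnase1 (0.30). Its lowest were Eif1 and the mitochondrial transcripts mt-Nd4 and mt-Nd1, at -0.22 to -0.29.

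For Dmbt1 they were Cpb1, P4hb, a disulfide isomerase of the endoplasmic reticulum (0.44, or 0.18 thinned), mt-Co3 (0.40, or 0.21 thinned), Rpsa (0.39, or 0.21 thinned) and Cela1. Among the lowest were Gm8730, at -0.30, and Cela2a, at -0.34. Aqp12 had no r above 0.23, with Uqcrq, Serpini2, Nme1, Atp5l and Xist at the top, and Uqcrq was at 0.11 thinned.

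Other genes of the granule and the apical pole were counted from fixed lists in the acinar over other contrast. Of 36 genes of granule content or membrane, 20 had at least 50 UMIs, of which 5 were at least 2-fold higher in acinar cells, 11 lower and 4 between. Over all genes 3.85% were higher and 85.3% lower. The list median was -1.57 on the log2 scale, beside -2.57 over all genes, and with the enzymes taken out of the total 7 were higher and 6 lower, where 6.91% of all genes were higher and 62.9% lower. The higher ones included Sycn (5.44), the trypsin inhibitor Spink1 (5.99), Pdia2 (5.13), Cuzd1, a zona pellucida domain protein of the granule membrane (5.29), and Rab3d, a small GTPase of secretory granules (1.34).

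The 4 granule genes between were Muc1, a transmembrane mucin (0.93), Stxbp2, a regulator of SNARE assembly (0.21), Cd63, a tetraspanin (-0.62), and Vamp8, a granule SNARE (-0.63). Taking the enzymes out of the total adds 1.08 to the log2 ratio of every gene, which puts Cd63 at 0.46, Vamp8 at 0.45, Muc1 at 2.01 and Stxbp2 at 1.29. Of the 11 lower genes, Chmp2a, an ESCRT subunit (-1.68), and Lamp1, a lysosomal membrane glycoprotein (-1.58), had at least 50 UMIs in acinar cells, and with that total Chmp2a stood at -0.60 and Lamp1 at -0.50. Rab3d had 62 UMIs in acinar cells and 24 in other cells, so its value rests on few counts.

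Of 20 genes of the apical pole and fluid secretion 17 were measured and 6 passed the floor. None was higher, 5 were lower, among them the water channel Aqp1 (-5.57) and the claudin Cldn3 (-1.83), and Prom1 was between, where 85.3% of all genes were lower and 3.85% higher. With the enzymes out of the total 4 were lower and 2 between, with Cldn3 now between at -0.75. In that total 62.9% of all genes were lower and 6.91% higher. None of the 6 reached 50 UMIs in acinar cells. Of 10 genes of the secretagogue response 9 were measured and 5 passed. With the enzymes in the total 2 of them were higher and 3 lower, against 3.85% of all genes higher and 85.3% lower. Cckar, the cholecystokinin receptor, had 163 UMIs in acinar cells and 4 in other cells (5.18), and P2rx1, an ATP-gated channel, 147 in acinar and 5 in other cells (4.74), while Gna11, Gnaq and Rapgef3 were lower.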

How the data were processed

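UMI counts came from 2 labelled replicates of 1 group. The authors deposited a raw count per gene and cell, in a table named as filtered, and its values are whole numbers. Cell Ranger and mm10 are named in the submitters' processing notes, while their versions and the filter on cells were not stated in the sources used here. Of 14793 gene rows, 4 symbols on 2 rows were summed. Cells had 1004 to 53222 UMIs. Members and lists were chosen with earlier results of these data known.

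UMIs were summed per set and scaled to CPM, with exact Poisson intervals for counts and ratios and Clopper-Pearson intervals for shares (95%). Log2 ratios used a prior of 0.5 counts and a floor of 50 UMIs, and 2-fold was the size called. A limit at 0 is 3 counts. Values per gene were not divided by length, so genes were not ranked by level. Thinning to 1000 UMIs (seed 0) left out 0 cells. High and low groups were split at the median of acinar cells.

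Clusters were made with scanpy 1.11.5 (Python 3.11.15, numpy 2.4.6, scipy 1.17.1, pandas 2.3.3) without the 4 genes, from 10000-scaled log values, 2000 variable genes, 20 components, 15 neighbours and Leiden resolution 0.5, and named from marker lists. The doublet caller marked 3 cells (0.412%), which were kept. The genes named were the 4 genes, Tff2, the 10 enzymes, list genes with at least 50 UMIs in acinar cells and, for each of the 4, the 5 genes nearest and 3 farthest in r, of which some are not reported here; list genes with fewer UMIs were named after their values were seen. The sums, ratios and correlations were tested on simulated data with 200 changed genes. Alternatives covered the acinar limit, the cells kept, the total, thinning and rank correlation.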

Additional observations from a re-analysis of the deposited data

How the results depend on the processing

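No paired analysis was possible because the labels give 1 group and do not tie cells to its replicates, and no replicate was left out for the same reason. Over 28 results, 232 values were computed under alternatives: 183 stayed within the counting interval or, for correlations, within 0.1, 46 moved and 3 changed direction. Leaving out the unnamed cluster and using ending 2 alone (levels and correlations) were chosen after seeing the data. Except where a value shows it, the cause was not tested.

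With an acinar limit of 5%, the correlations with enzyme share were 0.38 for Gp2 (0.10 at 10%), 0.62 for Zg16 (0.35), 0.14 for Dmbt1 (-0.18, reversed) and 0.11 for Aqp12 (-0.04), and those with Tff2 were 0.18 for Gp2 (-0.10), 0.55 for Zg16 (0.37) and 0.32 for Dmbt1 (0.16). The r of Gp2 with Tff2 and of Aqp12 with enzyme share thus also changed sign. The Zg16 ratios were then 39.3 for acinar over other, 1.29 for Tff2 and 1.35 for enzymes. The 5% limit takes in 13 further cells low in enzymes. With a limit of 20% the r of Dmbt1 with enzyme share was -0.30, and by Spearman it was -0.37.

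Without the enzymes in the total, levels were 4654 (Gp2), 28904 (Zg16), 3653 (Dmbt1) and 503 CPM (Aqp12), and acinar over other ratios 168, 74.8 and 128 for the first 3. That total scales the enzyme ratio of every gene by 1.26. The high-enzyme over low-enzyme ratios were 1.06 for Gp2 (0.977 to 1.14, so across 1 but not beyond counting error), 1.63 for Zg16 and 0.807 for Dmbt1, and the correlations with enzyme share 0.21, 0.61 and -0.055.

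Thinned, the Tff2 ratios were 0.799 (Gp2) and 1.27 (Zg16), the enzyme ratios 0.995 (Gp2), 1.16 (Zg16) and 0.541 (Dmbt1), and the shares 84.0% (Gp2), 75.3% (Dmbt1) and 27.3% (Aqp12). With ending 1 only, Dmbt1 was at 1829 CPM and in 94.3% of cells, its enzyme ratio was 0.713 and its r with enzyme share -0.060, and the Zg16 enzyme ratio was 1.23. With ending 2 only, Gp2 was at 1686, Zg16 at 15046 and Dmbt1 at 718 CPM, Zg16 had an r of 0.50 with Tff2, and Dmbt1 one of 0.11 with enzyme share (reversed). Dmbt1 therefore rests on which ending is counted, and its r with enzyme share has no stable sign.

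Without called doublets and the top 2% of cells, levels were 2288 (Gp2) and 13762 CPM (Zg16), and Tff2 ratios 0.836 (Gp2) and 1.37 (Dmbt1). The Tff2 ratio of Dmbt1 was 1.07 (0.974 to 1.17) with the 5% limit, and that of Aqp12 1.24 (0.959 to 1.60) there and 1.30 (0.962 to 1.77) without doublets and deep cells, all holding 1. Without shared barcodes the Zg16 enzyme ratio was 1.26, and without the unnamed cluster the Zg16 acinar over other ratio was 39.1. Depth limits Aqp12 most, with a median of 1 UMI per acinar cell.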
